A study of Mus musculus with 4 samples.

Results

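The Myc family genes described here are Myc, Mycn, Mycl and their shared partner Max, 4 of the 55357 gene features in the count matrices, found by an exact match of the gene symbol; all 4 were present. They were measured by single-cell RNA-seq of LSK cells, a mouse bone marrow fraction without lineage markers but with Sca-1 and Kit, in which haematopoietic stem cells (HSC) and early progenitors are found. The first group was wild-type mice given Yoda1, an opener of Piezo1, a cation channel that responds to membrane stretch, injected intraperitoneally over 2 weeks (2 libraries, Yoda1 1 and Yoda1 2). The second was wild-type mice given vehicle (2 libraries, Control 1 and Control 2). Age, sex and the number of mice in a library are not given in the labels, so the p-values measure only how far these libraries differ, and that spread may be technical. The question was whether the level of each gene, the share of cells carrying it, or the balance of Myc and Mycn from stem-like to lineage-primed cells differed between Yoda1 and control.

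Myc, Mycn and Mycl encode basic helix-loop-helix leucine zipper transcription factors that bind DNA as dimers with Max, at E-box motifs, and raise ribosome production, metabolism and cell growth. Max also pairs with the Mxd proteins, Mnt and Mga, which occupy the same sites and repress. In the mouse, Myc and Mycn act redundantly in HSC, where the loss of both is far more damaging than the loss of either, and Myc loss alone holds stem cells back from differentiating. Mycl is known in mice as the family member used by dendritic cells.

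In the GENCODE M21 annotation of GRCm38, Myc lies on the plus strand of chromosome 15 from 61985391 to 61990374. Mycn lies on the minus strand of chromosome 12 from 12936093 to 12941914. Mycl lies on the plus strand of chromosome 4 from 122995652 to 123002485. Max lies on the minus strand of chromosome 12 from 76937269 to 76962201, where the uncharacterised transcript Gm47218 overlaps it on the same strand, so UMIs there may not be told apart. Each gene has 1 count per cell, whichever part of the transcript a UMI came from.

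The E-box is shown because it is the site that Myc:Max dimers read, and it stands at the start of Max itself. Promoter windows from RefSeq (GRCm38.p6), 250 bases before to 50 after a gene's start, matched 3 of the 4 members, Mycn, Mycl and Max. Starts in this paragraph are those of RefSeq, which for these 3 genes are not the GENCODE positions given above. The letters CACGTG, a palindrome that reads the same on both strands, stand in 7.15% of all 32851 windows and in 17 of the 60 genes of a fixed list of Myc targets that had a window (28.3%, against 8.09% of all 27025 genes). The window of Max holds 1 match, which begins 3 bases before the gene's start, and the windows of Mycn and Mycl hold none. The Mycn window holds the E2F-type letters TTTGGCGC at 2 places, of which the first begins 183 bases before the start; on either strand these letters stand in 0.514% of all windows, and they do not overlap an E-box there. Of the 20 further genes named from the pathway lists, 18 had a window and 3 of these, Mlx, Mnt and Pim1, held an E-box, while Cdk4, which encodes a G1 kinase, held 4, the most of any listed target. Capitals mark the motif in each stretch.
Max, chr12:76962234-76962263, minus strand: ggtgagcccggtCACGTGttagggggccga
Mlx, chr11:101087238-101087267, plus strand: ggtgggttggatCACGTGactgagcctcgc
Mnt, chr11:74830789-74830818, plus strand: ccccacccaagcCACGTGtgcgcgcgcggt
Pim1, chr17:29493015-29493044, plus strand: gtaaacaggaatCACGTGgtctgaaaccag
Cdk4, chr10:127063512-127063541, plus strand: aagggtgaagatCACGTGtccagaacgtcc
Mycn, chr12:12941994-12942023, minus strand: ggctTTTGGCGCgaaaggcTTTGGCGCctc

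The kept cells numbered 9122 and 9756 in the Yoda1 libraries and 7620 and 7822 in the controls, with 89058521 to 110493533 UMIs per library and a median of 7311 to 11220 UMIs per cell, lowest in Yoda1 2. Pairs of libraries shared 8 to 26 cell barcodes, at most 0.332% of either. Transcripts of the sorting markers were present in every library: Ly6a (Sca-1) stood at 97.9 to 262 CPM (UMIs scaled to a common library total) and Kit at 98.4 to 156. Cells with markers of mature lineages, among them T cells, macrophages and B cells, were found all the same. Yoda1 2 stood apart in its mix, with 45.0% HSC-like cells against 8.16% to 11.8% in the other libraries, and Yoda1 1 in the interferon gene Ifit3, at 30.03 CPM against 3.50 to 4.69.

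Over all kept cells Myc did not differ between Yoda1 and control beyond the spread of the libraries. It had 105 and 139.5 CPM in Yoda1 1 and Yoda1 2, against 119 and 151.5 CPM in Control 1 and Control 2. The groups overlapped, and in each of them replicate 2 was the higher library. Yoda1 libraries averaged 122 ± 24.2 CPM and controls 135 ± 22.7 CPM (SD, n = 2 each). The log2 fold change was -0.20 ± 0.19 (SE), with an adjusted p of 0.9999 by edgeR's quasi-likelihood test. That test called 0 of 18182 genes over all cells (0%), and at an unadjusted p under 0.05 it had 148 higher and 161 lower genes. DESeq2 called 5 and limma-voom 0.

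Mycn had its highest level in Yoda1 2. It had 15.2 and 35.4 CPM in the Yoda1 libraries, against 12.7 and 20.5 CPM in the controls, so the groups overlapped and Yoda1 2 lay above the other libraries. The log2 fold change was 0.54 ± 0.35 (SE; edgeR adjusted p = 0.9999). Mycn passed the test when Yoda1 1 was left out, with a log2 fold change of 0.94 and an adjusted p of 0.0132 by edgeR, in a fit that called 4.96% of the genes tested. That fit has a single Yoda1 library, which is assumed to vary like the controls, so its p carries nothing on the spread between Yoda1 libraries. Without Yoda1 2 the log2 fold change was -0.04. Yoda1 2 was also the library with the largest share of HSC-like cells. When each library's class levels were weighted by the same mean mix of classes, Mycn stood at 19.1 and 25.4 CPM in the Yoda1 libraries and 15.8 and 22.5 CPM in the controls, against 15.3, 36.1, 12.7 and 20.8 CPM with each library's own mix of the same classes. At the common mix the Yoda1 mean was 3.10 CPM above the control mean, with an exact two-sided permutation p of 0.667 over 4 libraries. With 6 arrangements the smallest p this design allows is 0.333.

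Mycl was scarce in LSK cells. It had 0.652 and 1.69 CPM in the Yoda1 libraries, against 1.50 and 2.23 CPM in the controls, from 72, 153, 154 and 199 UMIs. The groups overlapped, with Yoda1 1 the lowest library. The log2 fold change was -0.75 ± 0.47 (SE; edgeR adjusted p = 0.9999).

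Max was level across the libraries. It had 58.0 and 59.6 CPM in the Yoda1 libraries, against 61.5 and 59.5 CPM in the controls. All 4 libraries lay between 58.0 and 61.5 CPM, and the groups overlapped. Its log2 fold change was -0.09 ± 0.17 (SE; edgeR adjusted p = 0.9999).

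**Figure D1:**
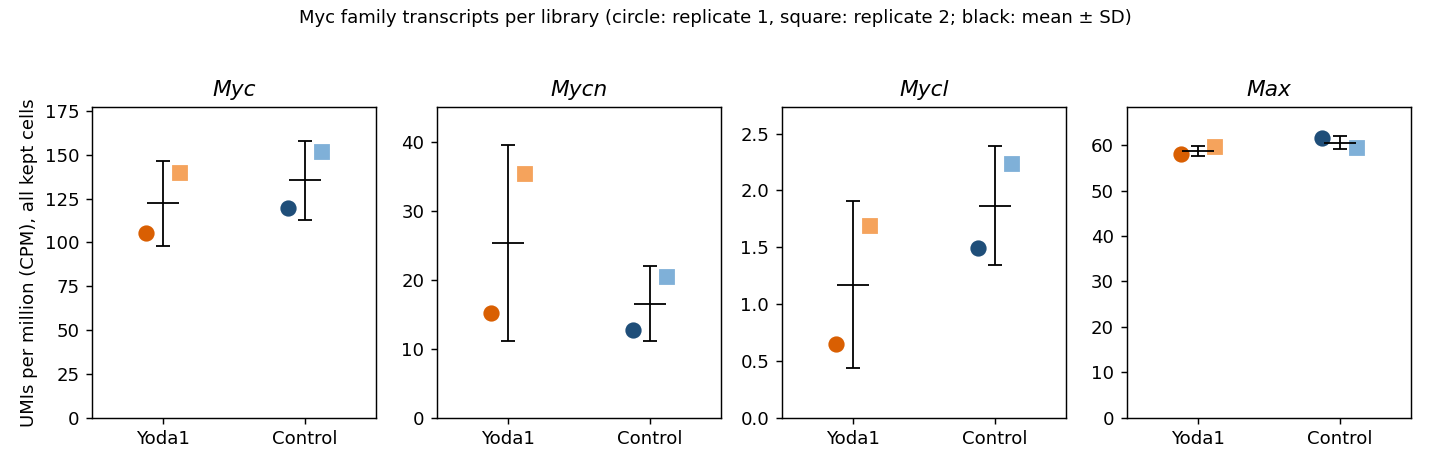
Level of each Myc family gene over all kept cells, in CPM, on axes that start at 0 and differ between panels. Circles are replicate 1, squares replicate 2, and black marks the mean and SD of the 2 libraries; the groups overlap for all 4 genes, and Mycn is highest in Yoda1 2 at 35.4 CPM.

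The share of cells with at least 1 UMI was compared after each cell had been thinned to 3000 UMIs, which left 8968 and 9310 cells in the Yoda1 libraries and 7394 and 7570 in the controls. Myc was detected in 25.8% and 32.0% of Yoda1 cells and 29.3% and 34.1% of control cells. Mycn was detected in 6.07% and 10.9% of Yoda1 cells and 4.34% and 6.94% of control cells. Max was detected in 16.2% and 16.7% of Yoda1 cells and 16.5% and 16.5% of control cells. Mycl was detected in 0.223% and 0.355% of Yoda1 cells and 0.365% and 0.608% of control cells, and at this depth it was the only member whose groups did not overlap. Thinned to 2000 or to 5000 UMIs, the Mycl groups overlapped (exact permutation p = 0.667 each). The Max groups did not overlap at 2000 UMIs, and those of Myc and Mycl did not at full depth (exact permutation p = 0.333 each). How often groups separate over all genes was not computed for this measure. Exact 95% binomial intervals cover counting error only; for Myc in Control 2 the interval was 33.1% to 35.2%, and for Mycn in Yoda1 2 it was 10.2% to 11.5%. The exact permutation p was 0.667 for Myc and Mycn, 0.333 for Mycl and 1.0 for Max. At full depth Myc was found in 58.4% and 58.4% of Yoda1 cells and 64.2% and 66.5% of control cells, and Mycn in 13.4% and 22.8% of Yoda1 cells and 12.5% and 15.5% of control cells.

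Clusters were named from marker genes, and 12 classes, 11 named and 1 unnamed, had at least 50 cells in every library. The 4 members, the Max network, the listed Myc targets and the listed cell cycle genes were left out of the variable genes used for clustering. Scores of the listed cell cycle genes were regressed out, and not every other cell cycle gene was left out. The classes come from the same cells, so differences between classes are described without a test. Mycn differed several-fold between classes. Its mean over the 4 libraries was highest in megakaryocyte-like cells, at 68.1 ± 12.4 CPM (SD, n = 4), then 54.1 ± 14.3 in T/NK/ILC-like cells, 41.8 ± 9.08 in HSC-like cells and 39.2 ± 8.71 in cells with megakaryocyte-erythroid (MkE) markers. It was 27.0 in macrophage-like, 21.5 in lymphoid-like and 17.99 in MPP-like (multipotent progenitor) cells. It was 15.7 in the unnamed cluster, which was led by Cpa3, Ccl9 and Clec4e, and 8.38 in mast/basophil-like cells. The lowest levels were 3.20 in myeloid-like, 3.13 in erythroid-like and 2.87 in monocyte/dendritic progenitor-like cells. Every neighbouring pair in this order overlapped in its range over libraries, while the ends lay 23.7-fold apart.

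In HSC-like cells Mycn had 41.1 and 48.7 CPM in the Yoda1 libraries, against 29.2 and 48.1 CPM in the controls. In erythroid-like cells it had 3.13 and 2.16 CPM in the Yoda1 libraries, against 3.71 and 3.51 CPM in the controls. At the common depth Mycn was found in 13.5% and 14.6% of HSC-like Yoda1 cells and 9.68% and 13.7% of HSC-like control cells. Free RNA was not measured. In erythroid-like cells, taken as a class with little Mycn, it was found in 0.682% and 0% of Yoda1 cells and 0.868% and 0.435% of control cells. The median depth before thinning was 6307 to 7132 UMIs in HSC-like and 17447 to 21962 UMIs in erythroid-like cells, so the erythroid-like cells were the deeper ones and their share is no upper limit for free RNA in HSC-like cells.

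Myc was present in every class and varied less. Its mean ran from 164 ± 32.0 CPM (SD, n = 4) in erythroid-like cells, over 159 in the unnamed cluster, 151 in macrophage-like, 134 in MPP-like and 132 in HSC-like cells, to 92.1 in megakaryocyte-like and 73.0 ± 19.4 in T/NK/ILC-like cells. The ends lay 2.25-fold apart and every neighbouring pair overlapped. HSC-like cells had 100.2 and 145 CPM in the Yoda1 libraries, against 112 and 171 CPM in the controls. The classes with the most Mycn, megakaryocyte-like and T/NK/ILC-like, were the lowest 2 of 12 for Myc. Replicate 2 was above replicate 1 for Myc in 10 of 12 classes in the Yoda1 group and in 12 of 12 in the control group.

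Max was the flattest of the 4. Its class means ran from 64.8 ± 7.92 CPM (SD, n = 4) in macrophage-like to 54.0 ± 5.31 in myeloid-like cells, 1.20-fold apart, with every neighbouring pair overlapping. In HSC-like cells it had 53.4 and 59.7 CPM in the Yoda1 libraries, against 56.7 and 56.3 CPM in the controls, so the control values lay between the Yoda1 values.

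**Figure D2:**
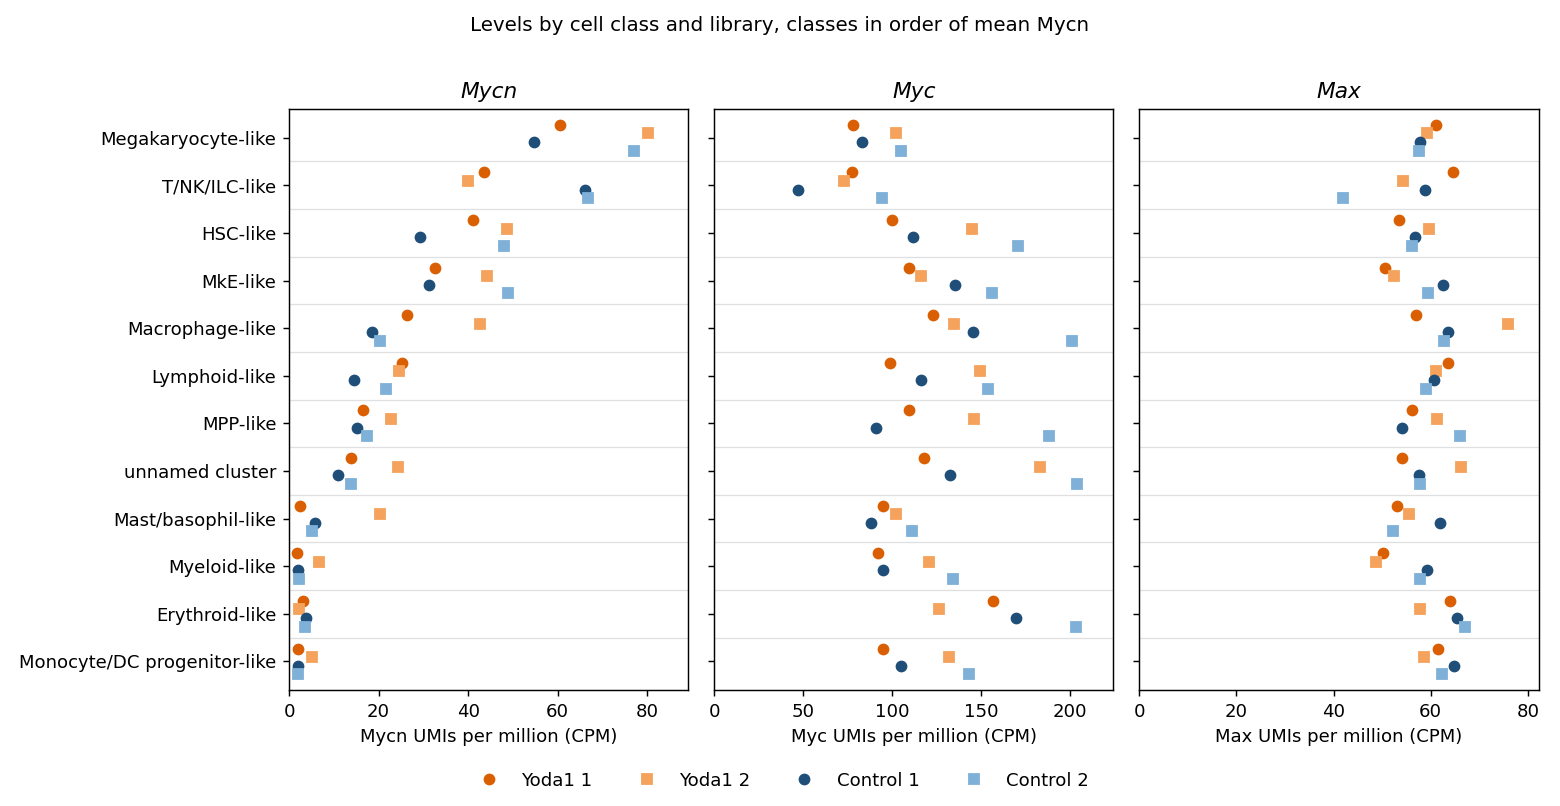
Mycn, Myc and Max in CPM (horizontal axes from 0, different per panel) for 12 cell classes, ordered by mean Mycn; each point is 1 library, Yoda1 in orange above control in blue within a row. Mycn falls 23.7-fold down the page, while Myc spans 2.25-fold and Max 1.20-fold.

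The balance of the pair was expressed as Mycn UMIs in percent of Myc plus Mycn UMIs. It is a share of UMIs, not corrected for how well each transcript is captured, and is meant for comparison between classes and libraries. In HSC-like cells it was 29.1% and 25.2% in the Yoda1 libraries, against 20.7% and 22.0% in the controls. In MPP-like cells it was 13.2% and 13.5% in Yoda1 libraries and 14.2% and 8.49% in controls, and in myeloid-like cells 1.96% and 5.26% in Yoda1 libraries and 2.08% and 1.63% in controls, with 145 such cells in Yoda1 2. Erythroid-like cells had 1.87% ± 0.222 and megakaryocyte-like cells 42.4% ± 1.98 (SD, n = 4). The share was thus lower in myeloid- and erythroid-like cells than in HSC-like cells, and higher in megakaryocyte-like cells, in each of the 4 libraries.

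From HSC-like to myeloid-like cells the share differed by 27.1 and 19.9 percentage points in the Yoda1 libraries, against 18.6 and 20.3 points in the controls. The groups overlapped. The Yoda1 mean was 4.06 points above the control mean, with an exact two-sided permutation p of 0.667 over 4 libraries. Measured as a log2 ratio of Mycn over Myc (CPM + 1), the step from HSC-like to myeloid-like was 3.77 and 2.43 in the Yoda1 libraries and 3.09 and 3.58 in the controls, a mean difference of -0.23. Gates on marker UMIs in place of clusters gave 27.9 and 23.3 points in Yoda1 libraries and 20.8 and 19.3 points in controls, with an exact permutation p of 0.333, the smallest possible. The groups also did not overlap with likely doublets removed (29.3 and 23.6 points in Yoda1 libraries, 20.5 and 20.8 in controls) and at clustering resolutions of 0.6 and 1.5, with differences of 5.81, 6.09 and 4.48 points and the same exact permutation p.

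Within single classes the share leaned to Mycn in the Yoda1 libraries. Both Yoda1 libraries lay above both controls in 6 of 12 classes, HSC-like, lymphoid-like, macrophage-like, megakaryocyte-like, monocyte/dendritic progenitor-like and the unnamed cluster, and below both in 1, T/NK/ILC-like. The same share against Myc was taken for every gene averaging 10 CPM or more. Both Yoda1 libraries then lay above both controls in 17.9% of gene and class pairs and below both in 2.68%. Mycn averaged 2.87 CPM in monocyte/dendritic progenitor-like cells, 1 of the 6 classes, so it falls outside those pairs there. It does so too in mast/basophil-, myeloid- and erythroid-like cells. The 12 classes come from the same 4 libraries and are not independent. The lymphoid-like share was 20.4% and 14.2% in Yoda1 libraries and 11.1% and 12.3% in controls. In HSC-like cells the Yoda1 mean was 5.81 points above the control mean and in T/NK/ILC-like cells it was 14.1 points below, each with an exact permutation p of 0.333, which is the smallest possible. Markers of some other lineages within HSC-like cells moved too. The 12 myeloid markers summed to 2085 and 1383 CPM in Yoda1 libraries, against 2993 and 2228 CPM in controls. The 8 mast/basophil markers summed to 127 and 102 CPM in Yoda1 libraries, against 171 and 149 CPM in controls. Sums for the classes with the most Mycn were lower as well. The 7 megakaryocyte markers had 266 and 227 CPM in Yoda1 libraries, against 278 and 274 CPM in controls. The 7 T/NK/ILC markers had 230 and 223 CPM in Yoda1 libraries, against 293 and 295 CPM in controls. The lymphoid, erythroid, MkE and monocyte/dendritic progenitor sums overlapped between the groups. The part of these markers in the share was not tested. The stem gate, cells with Hlf, at least 1 UMI of Procr, Mecom or Mllt3 and fewer than 2 UMIs of Mpo, gave 32.3% and 30.5% in Yoda1 libraries and 26.4% and 22.9% in controls.

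**Figure D3:**
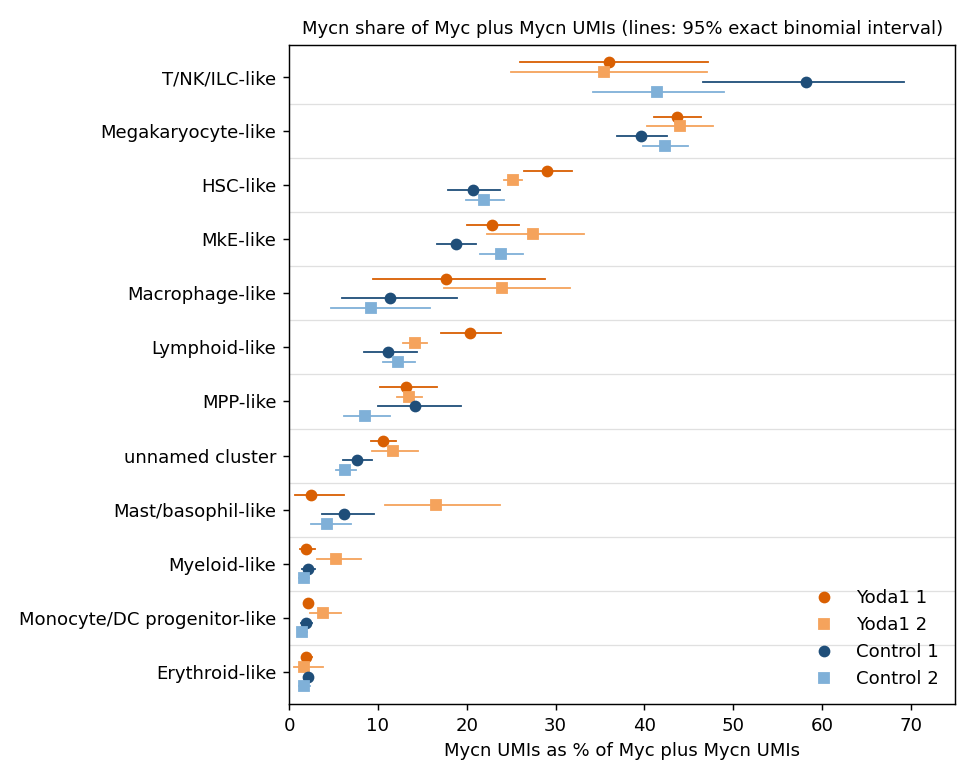
Mycn UMIs in percent of Myc plus Mycn UMIs (horizontal axis) for 12 cell classes and 4 libraries, Yoda1 in orange above control in blue, with lines for the exact 95% binomial interval. In HSC-like cells the Yoda1 libraries stand at 29.1% and 25.2% and the controls at 20.7% and 22.0%; erythroid-like cells lie near 2% in every library.

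HSC-like cells formed 2 clusters that differed in Mycn. The cluster with Ltb and Procr among its leading genes had 50.4 and 67.1 Mycn CPM in the Yoda1 libraries, against 45.7 and 73.5 CPM in the controls. The cluster led by Hlf, Mecom and Gcnt2 had 18.4 and 38.0 CPM in the Yoda1 libraries, against 17.2 and 31.6 CPM in the controls. The first cluster was higher in every library, and the groups overlapped in both. The Mycn share was 33.6% and 32.0% in Yoda1 libraries and 29.2% and 28.7% in controls in the first cluster, and 15.3% and 20.7% in Yoda1 libraries and 13.2% and 16.2% in controls in the second. The first cluster made up 842 of 1080 HSC-like cells in Yoda1 1 and 2253 of 4387 in Yoda1 2, against 364 of 622 in Control 1 and 455 of 901 in Control 2. Median depth was 5469.5 to 5767 UMIs in the first cluster and 8605 to 10682.5 in the second.

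The HSC-like cells were also divided by their UMIs of 16 cell-cycle genes, such as Mki67 and Top2a, at the common depth of 3000 UMIs per cell. Mycn was lower where these genes were detected most. In cells with 3 or more such UMIs Mycn had 20.7 and 30.9 CPM in Yoda1 libraries and 14.8 and 24.2 CPM in controls. In cells with 0 it had 55.3 and 65.6 CPM in Yoda1 libraries and 47.4 and 69.9 CPM in controls. The ranges of these 2 bins did not overlap. Cells with 1 or 2 such UMIs had 60.8 and 52.8 CPM in Yoda1 libraries and 42.5 and 56.1 CPM in controls, which overlapped the cells with 0, and in Yoda1 1 they stood above them. In CPM Myc moved the same way but less. It had 85.6 and 124 CPM in Yoda1 libraries and 105 and 138 CPM in controls at 3 or more UMIs. In cells with 0 such UMIs Myc had 112 and 158 CPM in Yoda1 libraries and 119 and 192.5 CPM in controls. CPM is relative to all UMIs of a bin. Per cell, Myc UMIs were more numerous at 3 or more than at 0 in each library, and Mycn UMIs were fewer. In Control 1, 219 cells at 3 or more held 299 Myc and 42 Mycn UMIs, against 135 and 54 in 181 cells at 0. The Mycn share at 3 or more UMIs was 19.5% and 19.98% in Yoda1 libraries and 12.3% and 14.96% in controls. In cells with 0 it was 33.1% and 29.4% in Yoda1 libraries and 28.6% and 26.6% in controls. The bins are ranges of a count, not cell types: 190, 467, 90 and 90 cells (Yoda1 1, Yoda1 2, Control 1, Control 2) had 2 or 3 such UMIs and lay next to the upper limit. In megakaryocyte-like cells Mycn also stood lower in CPM at 3 or more UMIs than at 0. It had 50.8 and 73.7 CPM in Yoda1 libraries and 45.6 and 68.7 CPM in controls. At 0 it had 80.7 and 99.8 CPM in Yoda1 libraries and 63.0 and 81.5 CPM in controls. Per cell, Mycn UMIs were more numerous at 3 or more in each library. In Yoda1 1 there were 357 in 424 cells, against 104 in 135 cells at 0. The Mycn share of megakaryocyte-like cells was also higher at 3 or more UMIs in each library. It was 44.3% and 46.8% in Yoda1 libraries and 38.3% and 45.2% in controls. At 0 the share was 41.3% and 41.5% in Yoda1 libraries and 37.2% and 37.4% in controls. In MkE-like cells Mycn had 30.3 and 48.3 CPM in Yoda1 libraries and 24.6 and 34.1 CPM in controls at 3 or more UMIs. At 0 it had 27.7 and 43.4 CPM in Yoda1 libraries, from 22 and 13 Mycn UMIs, and 33.1 and 70.7 CPM in controls. With 1 or 2 it had 39.2 and 28.7 CPM in Yoda1 libraries and 46.4 and 55.0 CPM in controls. The order of the bins differed between libraries, and Mycn in these bins was not tested between the groups. In MPP-like cells it was lower at 3 or more UMIs in each library, at 9.66 and 14.9 CPM in Yoda1 libraries and 10.5 and 8.15 CPM in controls, against 23.8 and 33.9 CPM in Yoda1 libraries and 32.9 and 20.4 CPM in controls at 0.

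**Figure D4:**
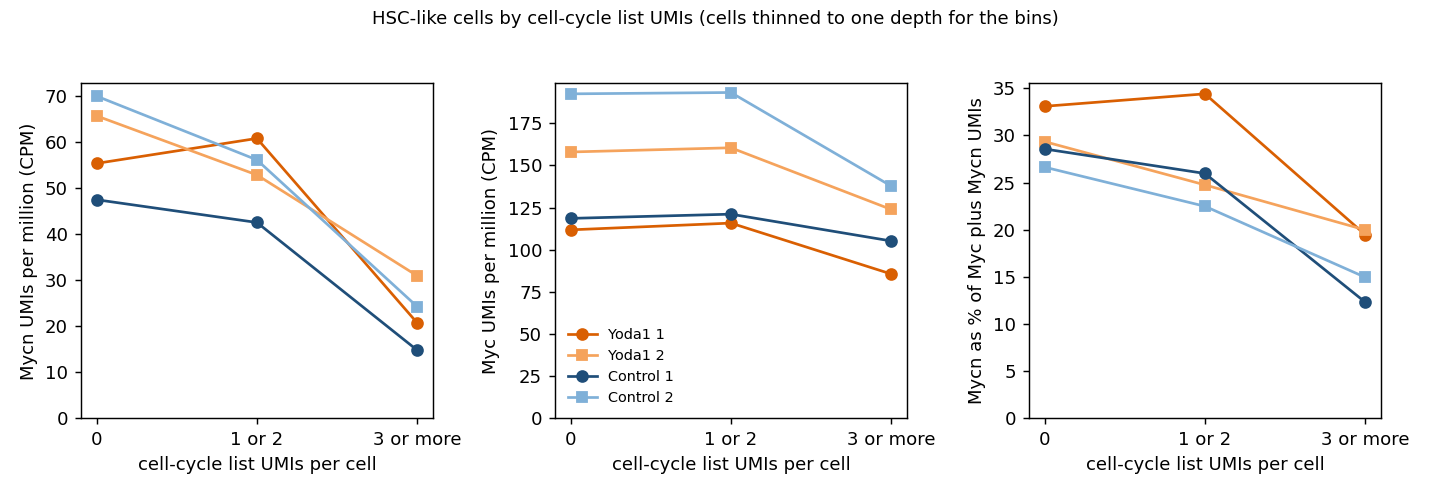
HSC-like cells by the number of cell-cycle list UMIs per cell (horizontal axis, 3 bins), with Mycn and Myc in CPM and the Mycn share of Myc plus Mycn UMIs in percent; each line joins the bins of 1 library. Mycn is lowest in the bin of 3 or more UMIs in all 4 libraries, at 14.8 to 30.9 CPM.

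Myc and Mycn were found together in single HSC-like cells. At the common depth 3.74% and 4.79% of HSC-like Yoda1 cells and 3.17% and 5.93% of HSC-like control cells held both. That was 39 and 203 cells in Yoda1 libraries and 19 and 51 cells in controls, against 31.6 and 196 cells in Yoda1 libraries and 15.3 and 41.6 cells in controls if the detection of each were independent. Cells with Mycn alone made up 9.78% and 9.85% in Yoda1 libraries and 6.51% and 7.79% in controls. In erythroid-like cells Mycn alone was found in 2 and 0 cells of Yoda1 libraries and 3 and 2 cells of controls.

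Within classes Myc, Mycn and Max did not pass the test between Yoda1 and control in any of the 12 classes. Mycl had enough counts in monocyte/dendritic progenitor-like cells alone, where it did not pass either. edgeR's quasi-likelihood test called 0 genes in 10 classes and 1 gene each in the MkE-like class (0.00821% of genes tested) and the unnamed cluster (0.00788%). In HSC-like cells, where 0 of 13159 genes were called (0%), the log2 fold changes were -0.19 ± 0.22 for Myc, 0.24 ± 0.21 for Mycn and 0.02 ± 0.12 for Max (SE; edgeR adjusted p = 0.9999 each). Both Yoda1 libraries lay below both controls for Myc in 3 of 12 classes and above both in 0. For Mycn they lay above both in 4 and below both in 2, for Max above both in 2 and below both in 4. Over all gene and class pairs averaging 10 CPM or more, 11.2% lay above and 17.1% below. Mycn averaged less than that in monocyte/dendritic progenitor-like cells, counted above, and in erythroid-like cells, counted below, so both fall outside those pairs. By class, genes lay above both controls in 9.76% of cases in HSC-like, 10.6% in erythroid-like, 10.5% in lymphoid-like, 11% in MPP-like, 14.3% in macrophage-like, 12% in mast/basophil-like, 12% in megakaryocyte-like, 15% in MkE-like, 8.67% in monocyte/dendritic progenitor-like, 8.31% in myeloid-like and 12.9% in T/NK/ILC-like cells and 9% in the unnamed cluster. They lay below both in 14.3% of cases in HSC-like, 18.6% in erythroid-like, 19.9% in lymphoid-like, 15.9% in MPP-like, 14.9% in macrophage-like, 15.9% in mast/basophil-like, 16.6% in megakaryocyte-like, 19.5% in MkE-like, 16.2% in monocyte/dendritic progenitor-like, 12.1% in myeloid-like and 21.9% in T/NK/ILC-like cells and 19.8% in the unnamed cluster. The classes share their libraries, and the members' counts were not tested against these shares.

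The member and class pairs with an unadjusted p under 0.05 were 4, among Myc, Mycn and Max in 12 classes and Mycl in 1. Over all genes, 622 of 12187 were under it in MkE-like, 292 of 12478 in erythroid-like, 410 of 7772 in T/NK/ILC-like and 212 of 7558 in macrophage-like cells. In the classes without such a pair it was 237 of 13159 in HSC-like, 210 of 10822 in MPP-like and 229 of 12424 in lymphoid-like cells. It was 305 of 12617 in megakaryocyte-like, 293 of 10368 in mast/basophil-like and 233 of 13467 in monocyte/dendritic progenitor-like cells. Myeloid-like cells had 200 of 13107 and the unnamed cluster 370 of 12687. The members were not tested against these counts. Myc in MkE-like cells had 109.6 and 117 CPM in Yoda1 libraries, against 135 and 156 CPM in controls, a log2 fold change of -0.35 ± 0.13 (SE; edgeR adjusted p = 0.9024). Myc in erythroid-like cells had 157 and 126 CPM in Yoda1 libraries, against 169.8 and 204 CPM in controls (-0.35 ± 0.15 on the log2 scale, edgeR adjusted p = 0.9998), with 95 such cells in Yoda1 2. Both were lower in each Yoda1 library than in each control. Mycn in T/NK/ILC-like cells had 43.6 and 39.9 CPM in Yoda1 libraries, against 66.0 and 66.8 CPM in controls (-0.62 ± 0.25 on the log2 scale, edgeR adjusted p = 0.9083), from 28 to 75 UMIs per library. In the same cells the 7 T/NK/ILC markers summed to 1021 and 1582 CPM in Yoda1 libraries, against 1685 and 1817 CPM in controls, and the 7 megakaryocyte markers to 193 and 179.7 CPM in Yoda1 libraries, against 263 and 247.5 CPM in controls; their part in the Mycn difference was not tested. Mycn in macrophage-like cells had 26.3 and 42.7 CPM in Yoda1 libraries, against 18.6 and 20.3 CPM in controls (0.90 ± 0.40 on the log2 scale, edgeR adjusted p = 0.9999), from 11 to 36 UMIs per library. In each of these 4 both Yoda1 libraries lay on 1 side of both controls. Leaving out a library could therefore hardly change their direction and does not test it. None passed with all libraries in. The log2 fold change ranged from 0.45 (without Yoda1 2) to 1.15 (without Yoda1 1) for Mycn in macrophage-like cells. For Myc in erythroid-like cells it ranged from -0.54 (without Yoda1 1) to -0.21 (without Yoda1 2), with -0.22 without Control 2.

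Whether the response to Yoda1 differed between stem-like and primed cells was tested as an interaction of treatment and class, HSC-like against myeloid-like, with library as a block. edgeR called 3 of 14213 genes (0.0211%), none of them a member. The interaction was -0.08 ± 0.15 for Myc, -0.25 ± 0.35 for Mycn and 0.26 ± 0.16 for Max (log2, SE; edgeR adjusted p = 1.0 each).

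Mycl was concentrated in dendritic-like cells, a cluster led by Cd74 and the MHC class II genes H2-Aa, H2-Eb1 and H2-Ab1. There it had 57.8 and 74.8 CPM in Yoda1 libraries, against 45.7 and 73.9 CPM in controls, and was found at the common depth in 16.7% and 16.1% of Yoda1 cells and 16.1% and 19.5% of control cells. In all other cells together it had 0.472 and 0.449 CPM in Yoda1 libraries and 0.457 and 0.847 CPM in controls. The groups overlapped in both. Dendritic-like cells, 0.406% and 1.20% of the cells in Yoda1 libraries and 1.61% and 1.70% in controls, held 27.8% and 73.9% of the Mycl UMIs in Yoda1 libraries and 70.1% and 62.8% in controls. With 37 cells in Yoda1 1 the class was too small there for the test, and the 27.8% rests on 20 of 72 UMIs (exact 95% interval 17.9% to 39.6%). In HSC-like cells 0 of 1043 thinned cells of Yoda1 1 held a Mycl UMI (exact 95% upper bound 0.353%). The classes with the next highest means were monocyte/dendritic progenitor-like, at 1.85 ± 0.593 CPM, and lymphoid-like, at 1.57 ± 0.843 CPM (SD, n = 4).

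**Figure D5:**
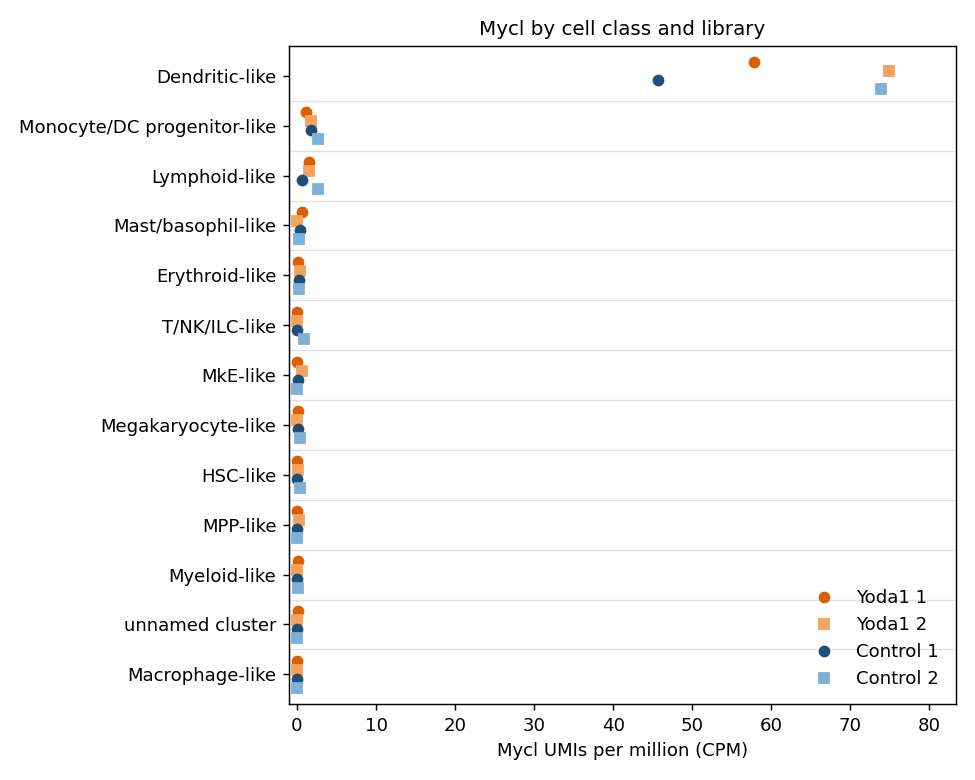
Mycl in CPM (horizontal axis) for the dendritic-like cluster and the 12 classes compared, 1 point per library, Yoda1 in orange above control in blue. The dendritic-like cells stand at 45.7 to 74.8 CPM in all 4 libraries, and every other class lies at 2.64 CPM or below.

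Bmyc, a rodent relative of Myc that lacks the DNA-binding domain, is not a member but was also counted. It lies on the plus strand of chromosome 2 from 25706739 to 25707721, where the antisense gene A230005M16Rik overlaps it. Bmyc had 90.1 and 119 CPM in Yoda1 libraries, against 79.1 and 99.9 CPM in controls, with overlapping groups and a log2 fold change of 0.17 ± 0.18 (SE; edgeR adjusted p = 0.9999). Across classes it was highest in lymphoid-like cells, at 173 ± 18.2 CPM, above the whole range of the next class, and lowest in erythroid-like cells, at 41.9 ± 4.51 CPM (SD, n = 4).

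No listed gene of the Max network, which here includes Mlx and Mlxip, passed the test. Of 9 listed genes 8 were tested over all cells, 4 with a positive and 4 with a negative log2 fold change, and 0 passed by edgeR (0 also at an unadjusted p under 0.05). Their median log2 fold change was 0.01, beside 0.01 over all genes tested. Mlx, which pairs with Mxd proteins and with glucose-sensing Mondo factors, had 25.8 and 25.4 CPM in Yoda1 libraries, against 30.3 and 32.2 CPM in controls (log2 fold change -0.33, edgeR adjusted p = 0.9999), both Yoda1 libraries below both controls. Over all cells, genes averaging 10 CPM or more lay so in 10.3% of cases, and above both controls in 7.15%. Mnt, the Max-binding repressor present in most cells, had 19.2 and 27.6 CPM in Yoda1 libraries, against 19.4 and 21.1 CPM in controls. The repressor Mxd3 had 12.3 and 14.7 CPM in Yoda1 libraries, against 10.96 and 11.8 CPM in controls, with log2 fold changes of 0.20 for Mxd3 and 0.15 for Mnt. Mlxip, a Mondo factor, had -0.14.

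Genes that set the stability of Myc protein, such as ubiquitin ligases and kinases, also showed 0 calls by edgeR among 11 tested (5 higher, 6 lower, median -0.01, 0 at an unadjusted p under 0.05). Pim1, a kinase that stabilises Myc, had 126 and 247 CPM in Yoda1 libraries, against 102 and 193 CPM in controls. Replicate 2 was the higher library in both groups, as for Myc, and the log2 fold change of 0.28 turned to -0.14 without Yoda1 2. In HSC-like cells Pim1 had 296 and 304 CPM in Yoda1 libraries, against 244 and 459.9 CPM in controls. Gsk3a, a kinase that marks Myc for destruction, had a log2 fold change of -0.19, the phosphatase subunit Ppp2r5a -0.06 and the ubiquitin ligase Huwe1 0.05. Of 10 cofactors of Myc 9 had a negative log2 fold change and 1 a positive one, with 0 calls by edgeR (0 at an unadjusted p under 0.05). Their median was -0.06, and 0 had both Yoda1 libraries below both controls. Over all genes 50.9% of log2 fold changes were positive. The cofactors named were the chromatin adaptor Wdr5 at -0.17, the acetyltransferase Kat2a at -0.20, its scaffold Trrap at 0.08 and the remodelling ATPase Ep400 at -0.08. Without Control 1, Wdr5 had 0.006, Kat2a 0.15 and Ep400 0.11.

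Of 67 Myc targets, mostly genes of ribosome assembly, nucleotide synthesis and growth, 57 had a negative and 10 a positive log2 fold change over all cells, with 0 called by edgeR (0 at an unadjusted p under 0.05). The median was -0.16, beside 0.01 over all genes. The count rested on single libraries: 18 were negative without Yoda1 2 and 30 without Control 1. The list's summed level was 13051 and 10726 CPM in Yoda1 libraries, against 12961 and 11955 CPM in controls, so Yoda1 2 was lowest and the groups overlapped. Tbrg4, which acts in mitochondrial RNA processing, had 22.9 and 17.9 CPM in Yoda1 libraries, against 30.6 and 22.6 CPM in controls (log2 fold change -0.42, edgeR adjusted p = 0.9999). Polr1b, the RNA polymerase I subunit, had -0.33, Rcl1, an rRNA processing factor, -0.24 and Sord, sorbitol dehydrogenase, -0.22. Cdk4, whose E-box is shown above, had 398 and 404 CPM in Yoda1 libraries, against 425 and 392 CPM in controls.

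Within HSC-like cells the same 67 targets were balanced, 38 with a positive and 29 with a negative log2 fold change, 0 called by edgeR (1 at an unadjusted p under 0.05), median 0.01 beside 0.00 over all genes. There 7 were negative without Control 1 and 46 without Control 2. The summed level was 9680 and 9809 CPM in Yoda1 libraries, against 9893 and 9159 CPM in controls. Between classes the summed target level was highest in erythroid-like cells, at 17750 ± 459 CPM, and near its lowest in HSC-like cells, at 9635 ± 330 CPM (SD, n = 4). MPP-like cells stood at 10942 ± 205 CPM, above the whole HSC-like range. Myc itself had its highest mean in erythroid-like cells too, but the orders differed elsewhere: megakaryocyte-like cells were next for the targets, at 13401 CPM, and among the lowest for Myc, at 92.1 CPM.

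Of 11 genes known to be repressed by Myc 9 were tested, 7 with a negative and 2 with a positive log2 fold change. EdgeR called 0 of them (2 at an unadjusted p under 0.05, beside 309 of all 18182 genes). Gadd45a, a DNA damage and growth arrest gene, had 14.2 and 18.5 CPM in Yoda1 libraries, against 24.3 and 26.0 CPM in controls. Cebpa, a transcription factor of granulocyte development, had 29.1 and 24.7 CPM in Yoda1 libraries, against 37.8 and 51.9 CPM in controls. Both were lower in each Yoda1 library than in each control, with log2 fold changes of -0.68 ± 0.17 for Gadd45a and -0.76 ± 0.22 for Cebpa (SE; edgeR adjusted p = 0.9999 each). Genes were named by the smallest unadjusted p in the list, a choice that favours such a separation. Among all genes averaging 10 CPM or more, 10.3% lay below both controls over all cells. Cebpa passed without Yoda1 1 (-1.02, edgeR adjusted p = 0.0047), a fit with a single Yoda1 library. Cebpa is also 1 of the 12 myeloid markers, whose sum was 9226 and 3136 CPM in Yoda1 libraries, against 11508 and 10584 CPM in controls, over all cells; their part in the result was not tested. In HSC-like cells the groups overlapped for Gadd45a, and Cebpa had 10.6 and 15.2 CPM in Yoda1 libraries, against 19.3 and 21.1 CPM in controls, where the myeloid sum was also lower in both Yoda1 libraries. Of all genes averaging 10 CPM or more in HSC-like cells, 14.3% lay below both controls. Ndrg1, a stress-induced differentiation gene, had -0.20 over all cells and Itgal, the LFA-1 integrin chain, -0.24.

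The genes whose class means followed those of Mycn most closely were Nrgn, which encodes the calmodulin-binding protein neurogranin, 6430590A07Rik, Zhx1, Med12l and Utrn, with a Pearson r of 0.983, 0.979, 0.961, 0.945 and 0.939 over 11 named classes, out of 8375 genes compared. The classes share libraries and depth, so these are descriptions. Nrgn stood at 613 CPM in megakaryocyte-like, 519 in T/NK/ILC-like and 255 in HSC-like cells and at 54.1 in myeloid-like cells. For Myc the most alike were Abt1, Rps26-ps1, Sap30bp, Mrrf and Snx15, with r of 0.891 to 0.872. Their class means varied little, Abt1 from 22.2 to 28.7 CPM, so the likeness to Myc rests on small differences.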

How the data were processed

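The members, gene lists and tests were chosen with earlier results of these data known. Per the file headers the deposited matrices of raw UMI counts were written by Cell Ranger 7.1.0, and Seurat 4.3.0, GRCm38 and mm10 are listed in the submitters' processing notes. For the annotation release and the counting of introns the entry is: not given in the sources used here. The labels mention 10x Genomics as well as a second maker's microwell chip, which leaves the platform unsure.

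Barcodes under 500 genes, under 1000 UMIs or over 10% mitochondrial UMIs were dropped. UMIs were summed per library, over all cells or per class, filtered by filterByExpr and scaled by TMM. The test was the quasi-likelihood test of edgeR 4.0.16 in R 4.3.3, with p-values adjusted over all genes by Benjamini-Hochberg at a threshold of 0.05. CPM are a gene's UMIs scaled to a common total over the cells summed. The SE is the log2 fold change divided by the square root of the F statistic. Cells were clustered in scanpy 1.11.5 with leidenalg 0.10.2 under Python 3.11.15 (2000 variable genes, 30 components, 15 neighbours, resolution 1.0), with S, G2/M and interferon scores regressed out. The interferon step, the exclusion of interferon and histone genes and the naming rule were set after a first clustering had divided stem-like cells by library. A class took the name of the list with the largest share of markers at least 0.5 (log2) above the other cells in at least 10% of its cells, with 3 or more such markers. A list was passed over where another had more markers among the 10 leading genes. Scrublet marked 0, 0, 575 and 1 cells (Yoda1 1, Yoda1 2, Control 1, Control 2), a failure of its threshold, so all cells stayed in. Thinning drew 3000 UMIs per cell without replacement. Shares carry exact (Clopper-Pearson) 95% intervals. Alternatives were RLE normalization, no filter, DESeq2 1.42.0, limma-voom (limma 3.58.1), the replicate number as a block, each library left out, other cell filters, doublets removed, other thinning depths, other resolutions and marker gates. The edgeR step was also run on simulated data with 200 changed genes. Named genes were the members, Bmyc, up to 4 genes per pathway list with the smallest unadjusted p and a mean of at least 10 CPM, and the 5 most alike in class means of log2(CPM + 10). Cdk4 and the genes that lead a cluster were named after their values were seen.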

Additional observations from a re-analysis of the deposited data

Results flagged for a closer look

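Some differences between Yoda1 and control ran one way in some classes, with both Yoda1 libraries above both controls, and the opposite way in others; the difference between the classes was not tested. For Mycn the Yoda1 mean lay above the control mean by 6.81 CPM in the unnamed cluster, 6.87 in lymphoid-like, 1.58 in monocyte/dendritic progenitor-like and 15.1 in macrophage-like cells. It differed by -0.97 CPM in erythroid-like cells, with 5 Mycn UMIs in Yoda1 2, and by -24.6 CPM in T/NK/ILC-like cells. For Max the difference, Yoda1 minus control, was 2.48 CPM in lymphoid-like and 2.55 in megakaryocyte-like cells, and -9.5 in MkE-like, -5.32 in erythroid-like, -3.58 in monocyte/dendritic progenitor-like and -9.08 in myeloid-like cells. For the Mycn share of Myc plus Mycn UMIs it was 5.81 percentage points in HSC-like, 5.55 in lymphoid-like, 10.6 in macrophage-like, 2.84 in megakaryocyte-like, 1.30 in monocyte/dendritic progenitor-like cells and 4.18 in the unnamed cluster, and -14.1 points in T/NK/ILC-like cells. The macrophage- and T/NK/ILC-like values rest on 51 to 146 cells per library. Over all gene and class pairs averaging 10 CPM or more, both Yoda1 libraries lay above both controls in 11.2% and below both in 17.1%. For the share against Myc they lay so in 17.9% and 2.68%. Mycn in erythroid- and monocyte/dendritic progenitor-like cells averaged less than 10 CPM and falls outside these pairs. The members were not tested against these shares.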

How the results depend on the processing

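The limits are few libraries and their unequal mix. For genes called over all cells (0), DESeq2 gave 5 and leaving out a library 0 to 938. Summed over classes (2), no filter gave 639, DESeq2 29, limma-voom 0, the replicate block 270, and leaving out a library 46 to 1084. For the interaction (3), no filter gave 12 and leaving out a library 3 to 40. Over 18182 genes the differences between replicates of the 2 groups correlated at 0.454; the labels tie the numbers to no shared batch, and the replicate block called 0 genes over all cells and no member. The Mycn share step from HSC-like to myeloid-like turned to -0.23 as a log2 ratio, and ranged from 0.46 to 7.65 points when a library was left out. Every deposited barcode was not run for it, since barcodes outside the filter have no class. The share of positive cells, Yoda1 minus control, ranged from -5.91 to 0.22 points for Myc, 0.43 to 5.23 for Mycn, -0.32 to -0.076 for Mycl and -0.33 to 0.18 for Max when a library was left out. Log2 fold changes that changed sign when a library was left out ranged over all cells from -0.037 to 0.94 (Mycn) and -0.19 to 0.0083 (Max). In HSC-like cells they ranged from -0.46 to 0.12 (Myc), -0.048 to 0.62 (Mycn) and -0.044 to 0.081 (Max), and in the interaction from -0.16 to 0.024 (Myc) and -1.25 to 0.33 (Mycn). Over all cells the listed genes ranged from -0.0016 to 0.29 (Mnt), -0.14 to 0.73 (Pim1), -0.14 to 0.0199 (Ppp2r5a), -0.33 to 0.0061 (Wdr5), -0.49 to 0.15 (Kat2a), -0.0029 to 0.16 (Trrap), -0.26 to 0.11 (Ep400) and -0.64 to 0.0596 (Polr1b). The cause was not tested. Among single genes and list counts, 376 comparisons with an alternative kept direction and call, 20 changed sign, 4 counts moved by more than 1.5 times, and 2 newly passed, Mycn and Cebpa without Yoda1 1.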
